A study of Mus musculus with 10 samples.

Results

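Cumulus cells, which enclose the oocyte within the ovarian follicle and belong to the granulosa lineage, were compared between C57BL/6 mice aged 10 months (3 libraries) and C57BL/6 mice aged 2 months (3 libraries). These 6 libraries were chosen by their labelled cell type, strain and age from the 10 libraries of the series. The other 4 libraries served as reference levels: mural granulosa cells of C57BL/6 mice aged 2 months (2 libraries), and cumulus-oocyte complexes of PMSG-primed mice aged 3 weeks (PMSG is a gonadotropin that makes follicles grow), 1 library each from BDF1 and DBA/2 mice. RNA was sequenced, and transcript levels were given as FPKM, a fragment count divided by transcript length and by library size. The labels name no genotype or drug that separates the ages. The basic culture medium held milrinone, which inhibits a phosphodiesterase and keeps cyclic AMP high. Mice primed with eCG, another name of that hormone, are named as the source of mural cells, whereas the priming of the cumulus donors, their cycle stage and the number of mice per library do not appear in the labels. Replicates are not said to be separate animals, so the spread between them may be technical.

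Cumulus cells feed the oocyte through gap junctions, hold it in meiotic arrest together with the mural layer, and divide and secrete matrix under signals from the oocyte and from the follicle wall. Mural granulosa cells line the follicle wall, carry the luteinizing hormone receptor once mature, and make steroids. In mice, fertility declines well before the end of life, and cumulus cells have been studied as a source of signals that bear on the quality of the ageing oocyte.

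Of 23234 gene symbols, 12267 had a mean of at least 1 FPKM over the 6 cumulus libraries and were tested. A gene under 1 FPKM at 1 age could pass this filter through the other age alone. In lists with many such genes the filter raises the share of tested members that differ, so those shares are descriptions. Values of single libraries are given below in the order of replicates 1, 2 and 3, and fold changes are differences of the mean log2(FPKM + 1), 10 months over 2 months, with their standard error (SE) from limma. The cumulus libraries were of like depth: the steps between low FPKM values placed them at 1 to 1.43 times the depth of 10-month replicate 1, whereas the complexes had 0.280 and 0.283 times that depth. Absolute read numbers were not used here.

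The labelled cell type was checked against cumulus markers. The summed FPKM of 7 cumulus markers, among them Amh, Npr2, Kctd14 and Otof, was 1108, 1152 and 766 at 10 months and 1053, 900 and 803 at 2 months, against 337 and 168 in mural cells. Otof, for example, stood at 25, 24.3 and 14.6 FPKM at 10 months and 23.2, 21.1 and 21.5 at 2 months, and at 1.45 and 0.592 in mural cells. Amh made up most of the sum in 10-month replicate 1 (740 of 1108). The median log2(FPKM + 1) of the 7 markers was 4.70 in that library, against 5.05 to 5.95 in the other 5 cumulus libraries and 5.10 and 4.29 in mural cells. Among the 7, Kctd14 stood at 91.7 FPKM against 181 to 245 in the other 5, and Slc38a3 at 24.3 against 32.1 to 61.0. Other cell types were uneven. Summed oocyte markers (12 genes) ranged from 148 to 330 FPKM at 10 months but from 4.43 to 1051 at 2 months, where replicate 2 listed 8 of 12 at 0 and replicate 3 was the highest of the 6. Summed mural markers (10 genes) stood at 370, 895 and 2003 at 10 months and at 289, 328 and 254 at 2 months, against 5962 and 9214 in the mural libraries. All 3 older libraries were thus above the younger ones in mural markers too, 5 of the 10 markers were higher in all 3 (all genes: 8.66%), and replicate 3 was the highest. That library was also the highest in erythroid markers, at 218 against 13.3 to 28.1 in the other 5, and in endothelial markers, at 23.4 against 2.11 to 6.79.

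As with mural markers, the summed immune, stromal and epithelial markers were higher in every 10-month library than in any 2-month one. Summed immune markers (13 genes) stood at 30.9, 77.7 and 100.7 FPKM at 10 months and 7.21, 9.35 and 8.59 at 2 months. Of the 10 tested, 9 were higher in every 10-month library than in any 2-month one (all genes: 8.66%). Lyz2 and C1qa, for example, were under 1 FPKM in every 2-month library and passed the filter only through their 10-month values. Theca and stroma markers (12 genes) stood at 36.8, 60.5 and 75.4 against 18.2, 16.4 and 16.8, and surface epithelium markers (9 genes) at 59.2, 58.5 and 119 against 35.1, 27.7 and 27.1. In 10-month replicate 1 the epithelial sum was mostly Krt8, at 50.1 FPKM against 22.4 to 30.8 at 2 months. The median log2(FPKM + 1) of the 9 epithelial genes was 0.219 in that library, within the 0.144 to 0.269 at 2 months. The pan-leukocyte gene Ptprc stayed low, at 0.180, 0.144 and 0.548 FPKM at 10 months and 0 to 0.126 at 2 months. The theca gene Insl3 was at or near 0 at 10 months, and 4 epithelial genes (Krt19, Upk3b, Upk1b and Msln) were at 0 in 10-month replicate 1. In bulk RNA, more cells of a type and more RNA per cell cannot be told apart, and the part of these cells in the differences below was not tested.

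**Figure D1:**
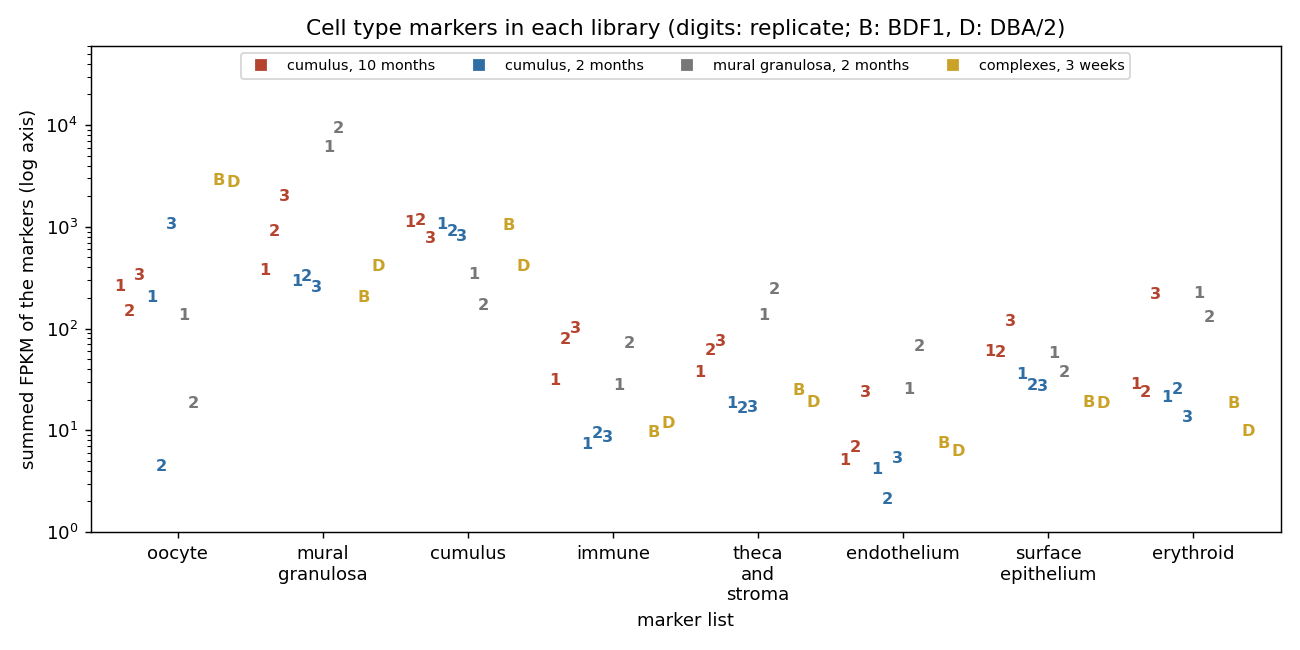
Summed FPKM of 8 marker lists on a log axis, with 1 digit or letter per library (digits: replicate number; B and D: BDF1 and DBA/2 complexes). Cumulus markers lie close together in the 6 cumulus libraries, oocyte markers spread from 4.43 to 1051 at 2 months, mural markers reach 2003 in 10-month replicate 3, and immune markers lie at 30.9 to 100.7 at 10 months against 7.21 to 9.35 at 2 months.

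No single gene passed the test between the ages. Of 12267 genes, 0 (0.0%) had an adjusted p under 0.05 (limma with Benjamini-Hochberg adjustment), and the smallest adjusted p was 0.252, so every difference below is a value that did not pass. Before adjustment, 794 genes with a higher mean at 10 months (6.47%) and 606 with a lower one (4.94%) had a p under 0.05. As a description that needs no test, 1062 genes (8.66%) were higher in all 3 libraries at 10 months than in any at 2 months, and 1103 (8.99%) were lower in all 3. Below, "higher in all 3" and "lower in all 3" have this meaning, and 8.66% and 8.99% are the background for each list count. Of all genes tested, 5638 had a higher and 6629 a lower mean at 10 months. The directions differed in size: 353 of the 1062 higher genes differed by at least 2-fold, with a median log2 fold change of 0.67, against 28 of the 1103 lower genes, with a median of -0.40. These counts depend on the scaling. With each library rescaled to the same sum without small RNA genes, 836 were higher and 1554 lower in all 3, and with the same sum over all genes 1166 and 949.

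A stricter count used all 10 libraries. At 10 months, 245 genes (2.0%) lay above and 228 (1.86%) below the other 7 libraries in all 3 replicates, so that their level is not bracketed by that in mural cells or in complexes. The size reached 2-fold in 93 of the 245 and 3 of the 228. The 10-month replicates contributed unequally. Among 771 genes that were higher in all 3, with at least 5 FPKM in the higher group, replicate 2 was the nearest to the 2-month libraries in 472 and replicate 3 the farthest in 396. Across genes, replicate 2 also ranked closer to 2-month replicates 1 and 2 (Spearman's rho 0.938 and 0.940) than to 10-month replicates 1 and 3 (0.929 and 0.9). Without it, 85 genes passed the test (81 higher and 4 lower), 9 of them small RNA genes, and Cdkn1a, Anxa2 and Ccl4 were among the higher ones. With any other single library left out, 4 to 7 genes passed, 3 to 6 of them small RNA genes. Of the 126 genes given with values below, 65 follow the rule for named genes and the others were chosen after their values were seen.

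**Figure D2:**
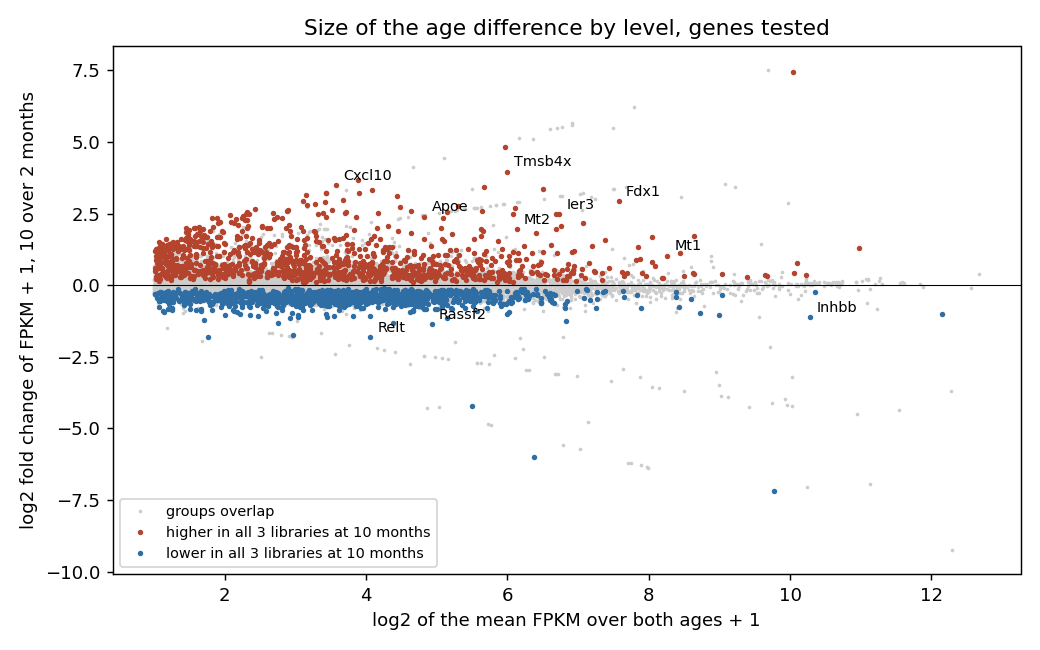
Log2 fold change of FPKM + 1 (10 over 2 months, vertical) against the log2 of the mean FPKM + 1 over both ages (horizontal) for the 12267 genes tested. Of genes higher in all 3 libraries at 10 months (red), 353 of 1062 differ by at least 2-fold, against 28 of 1103 genes lower in all 3 (blue), most of which lie within 1 log2 unit.

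The smallest unadjusted p of all genes tested belonged to Mt2, a metallothionein that binds zinc and copper. It stood at 95.3, 107 and 129 FPKM at 10 months and 21.3, 29.4 and 33 at 2 months, with 49.5 and 31.1 in mural cells and 13.6 and 53.2 in the BDF1 and DBA/2 complexes (log2 fold change 1.96 ± 0.20 SE, adjusted p = 0.252). All 3 older libraries thus lay above the other 7. Mt1, its neighbour on the chromosome, stood at 386, 421 and 425 FPKM against 218, 202 and 181 (log2 fold change 1.03 ± 0.14 SE, adjusted p = 0.252) and was also beyond the other 7. Mt3, a relative, stood at 33.3, 33.2 and 21.5 against 42.5, 29.8 and 17.2, and its groups overlapped. Of 20 metal-binding and transport genes tested, 6 were higher (all genes: 8.66%) and 1 was lower in all 3 (all genes: 8.99%). Their median log2 fold change was 0.12 (all genes: -0.03). The zinc exporter Slc30a1 stood at 10.2, 5.1 and 7.11 against 2.55, 3.46 and 6.75, with overlap, and the metal-sensing factor Mtf1 at 2.72, 2.35 and 3.75 against 2.6, 2.01 and 5.51.

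The promoters of Mt1 and Mt2 are shown because both genes were higher in all 3. Metallothionein genes are classically induced by metal through metal response elements, whose core was searched here as TGCNCNC on both strands in 300 bases around each RefSeq start (build GRCm38.p6; the FPKM were made on another build). Mt1 held 3 matches and Mt2 6. A match was found in 51.0% of 32851 promoters of this length, and 4 or more in 2.30%. Capitals mark the matches, and each stretch runs 5′ to 3′ on the plus strand.
Mt1, chr8:94179051-94179130: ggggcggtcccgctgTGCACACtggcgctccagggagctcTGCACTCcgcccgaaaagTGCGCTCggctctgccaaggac
Mt2, chr8:94172380-94172643: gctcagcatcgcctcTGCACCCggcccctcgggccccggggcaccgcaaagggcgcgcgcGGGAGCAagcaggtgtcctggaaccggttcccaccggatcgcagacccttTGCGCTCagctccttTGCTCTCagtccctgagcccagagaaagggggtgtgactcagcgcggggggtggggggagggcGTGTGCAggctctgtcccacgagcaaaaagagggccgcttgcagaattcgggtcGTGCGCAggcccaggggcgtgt

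Hmox1, which breaks down heme and responds to oxidants, stood at 61.1, 46.2 and 75.1 FPKM at 10 months and 29.6, 31.4 and 35.4 at 2 months, above all other libraries (log2 fold change 0.88 ± 0.20 SE, adjusted p = 0.337). The inducible HSP70 genes Hspa1a and Hspa1b are near-identical copies, so their split is uncertain. Hspa1a stood at 15.2, 16.2 and 9.22 against 3.09, 4.09 and 4.72 (log2 fold change 1.53 ± 0.25 SE, adjusted p = 0.252), and Hspa1b at 16.1, 16.4 and 10 against 3.72, 5.26 and 5.58. Bag3, a partner of HSP70, stood at 51.4, 53.8 and 38.7 against 27, 36.8 and 34.2. Of all 22 chaperone genes tested, 5 were higher in all 3 (all genes: 8.66%) and 0 lower, with a median of 0.07. The constitutive chaperone gene Hsp90aa1 stood at 277, 375 and 318 against 277, 304 and 374.

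Chemokines and targets of NF-kB, the factor that switches on inflammatory genes, were the lists with the largest share of tested members that were higher in all 3 libraries at 10 months. Of 24 chemokine and cytokine genes listed, 14 were tested. Of these 14, 10 were higher in all 3 (all genes: 8.66%) and 0 lower, with a median log2 fold change of 1.74, and 8 lay above the other 7 libraries (all genes: 2.0%). Cxcl10, Cxcl2, Il1b, Ccl2 and Ccl3 had a 2-month mean under 1 FPKM and passed the filter only through their 10-month values. The filter thus raises these counts and the median. Cxcl1, which attracts neutrophils, stood at 77, 69.5 and 102 FPKM at 10 months and 5.03, 18.3 and 21.8 at 2 months, against 2.92 and 1.01 in mural cells (log2 fold change 2.58 ± 0.50 SE, adjusted p = 0.284). Cxcl10, which attracts T cells, stood at 31.1, 10.8 and 21 against 0, 0.925 and 1.96 (log2 fold change 3.50 ± 0.50 SE, adjusted p = 0.252). Its lowest value was in replicate 2. Cxcl2 stood at 5.8, 6.62 and 17.7 against 0.224, 0.707 and 1.45, the monocyte chemokine Ccl2 at 4.52, 2.11 and 17.1 against 0.328, 0.344 and 0, and Ccl3 at 1.93, 1.55 and 2.83 against 0, 0 and 0.272. Il1b, which encodes interleukin-1 beta, stood at 4.04, 2.59 and 12 against 0.176, 0.369 and 0.425. Cd14, a receptor for bacterial lipopolysaccharide that is outside the list, stood at 3.16, 2.25 and 11 against 0.153, 0 and 0.37. Replicate 3 was the highest in Cxcl1, Cxcl2, Ccl2, Ccl3, Il1b and Cd14.

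Of 20 NF-kB pathway and feedback genes, 14 were higher in all 3 (all genes: 8.66%), 11 of them above the other 7 libraries (all genes: 2.0%). A higher mean at 10 months was seen in 20 of 20 (all genes: 5638 of 12267), with a median of 0.76. Ier3, an early response gene that modulates survival, stood at 219.8, 129.9 and 184 FPKM against 16.5, 38.1 and 43.9 (log2 fold change 2.48 ± 0.39 SE, adjusted p = 0.252). Relb, a subunit of NF-kB, stood at 22, 6.83 and 22.8 against 1.68, 1.56 and 2.23, and Tnfaip3, an inhibitor of the pathway, at 8.04, 8.36 and 21.9 against 1.5, 2.46 and 3.44. Nfkbia, the inhibitor that NF-kB itself induces, stood at 71.7, 90.2 and 83.5 against 35.3, 56 and 45.5, with 19.2 and 14.7 in mural cells. Icam1, an adhesion molecule for leukocytes, stood at 10.1, 4.52 and 10 against 0.338, 0.798 and 2.86. Among 2-month libraries, replicate 1 was the lowest in Ier3, Tnfaip3, Nfkbia and Icam1, though not in Relb. The list median of log2(FPKM + 1) was 2.79, 3.16 and 3.66 at 2 months, against 4.15, 3.75 and 4.59 at 10 months. Immune markers were higher in the same 10-month libraries (30.9 to 100.7 FPKM in sum against 7.21 to 9.35), and their part in these differences was not tested. Nor was the part of handling.

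Promoters of 4 of these genes are shown because the genes were higher in all 3 and are known NF-kB targets. All 4 hold a match, which not every higher member does. Of the 26 chemokine and NF-kB list members with a RefSeq promoter, 14 held a match to the NF-kB site motif, as did 10 of the 17 that were higher in all 3. A match was found in 4.51% of the 32851 promoters. The lists were made of known targets in part, so that share is a description. Other motifs were searched in other lists. The CArG box was in 1 of 17 early factor promoters, and in 0 of the 5 that were higher in all 3 (all promoters: 1.63%). The C/EBP-ATF site was in 6 of 24 promoters of the ATF4 list (3.97%), and a heat shock element motif in 8 of 17 chaperone promoters (7.86%). Capitals mark the NF-kB matches, which overlap on both strands in Cxcl1 and Cxcl2. The stretches run 5′ to 3′ on the strand of the gene.
Cxcl1, chr5:90891159-90891199: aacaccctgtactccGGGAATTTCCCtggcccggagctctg
Cxcl2, chr5:90903787-90903827: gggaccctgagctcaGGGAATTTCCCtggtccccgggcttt
Cxcl10, chr5:92348968-92349063: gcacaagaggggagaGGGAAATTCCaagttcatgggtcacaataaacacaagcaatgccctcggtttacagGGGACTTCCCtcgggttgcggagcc
Nfkbia, chr12:55492652-55492691: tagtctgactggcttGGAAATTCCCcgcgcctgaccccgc

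Immediate early genes, which cells switch on within minutes of a stimulus or of handling, varied among replicates of both ages. All 24 tested had a higher mean at 10 months (all genes: 5638 of 12267), with a median of 1.08, but 7 of 24 were higher in all 3 (all genes: 8.66%). Fos stood at 311, 1563 and 699 FPKM at 10 months and 351, 850.1 and 852 at 2 months, and Jun at 127, 532 and 278 against 199, 290.4 and 237, so their groups overlapped and replicate 2 was the highest of all. Egr1 stood at 196, 789.8 and 583 against 339.5, 424 and 502. The groups did not overlap in Myc, Atf3 and Klf4, though in Klf4 the nearest libraries stood at 55.7 and 54.5 FPKM. Myc, which drives growth and division, stood at 72.7, 36.3 and 61.9 against 12.2, 18.2 and 15.5 (log2 fold change 1.79 ± 0.28 SE, adjusted p = 0.252). Atf3, a stress-induced factor, stood at 25.5, 43.7 and 45 against 0.445, 6.78 and 21.6, and Klf4 at 55.7, 96.4 and 58.8 against 3.06, 26.8 and 54.5. In several of these genes 2-month replicate 1 was far below the other 5 libraries, as in Klf4, Atf3 and Egr3 (11.6, 10.9 and 17.8 against 0.163, 5.3 and 12.5), which widens the mean difference.

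Feedback inhibitors of ERK signalling, which read out recent growth factor signals, were counted next. Of 15 tested, 9 were higher in all 3 (all genes: 8.66%) and 0 lower (median 1.08). Dusp9, an ERK phosphatase outside the list, was lower in all 3 and is given below. In Dusp6, Dusp5, Errfi1 and Spry2, 2-month replicate 1 was the lowest. Dusp6, a phosphatase for ERK, stood at 24.5, 28 and 23.6 FPKM against 0.837, 9.11 and 14.6, and Dusp5 at 37.4, 33.3 and 26.4 against 6.02, 22 and 22.8. Errfi1, which restrains the EGF receptor, stood at 64.1, 21.8 and 122 against 4.42, 6.48 and 12.8 (log2 fold change 2.78 ± 0.64 SE, adjusted p = 0.337), and Spry2 at 18.7, 9.65 and 51.4 against 3.88, 6.38 and 7.78. Among ligands of that receptor, Hbegf stood at 7.2, 7.54 and 12.1 against 3.27, 5.25 and 4.62. Areg, one of the ligands that relay the ovulatory signal to cumulus cells, stood at 5.7, 0.914 and 88.5 against 0, 0 and 0.16, with replicate 3 far above the others. Ptgs2, the prostaglandin synthase of expanding cumulus, stood at 27.6, 2.17 and 27.6 against 0.15, 0.368 and 1.09, and Tnfaip6 at 9.37, 1.57 and 25.7 against 0.175, 0.164 and 1.6. Has2, which makes the hyaluronan of the expanded matrix, stood at 9.99, 1.26 and 1.09 against 0.586, 0.718 and 1.66, with overlap. In 10-month replicate 1 all 4 of these expansion genes lay above the 2-month libraries, in replicate 3 all but Has2, and in replicate 2 Areg and Ptgs2 alone, by a small amount.

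Of 24 growth arrest genes tested, 12 were higher (all genes: 8.66%) and 1 was lower in all 3 (all genes: 8.99%), and 7 lay above the other 7 libraries (all genes: 2.0%). Their median was 0.44. A higher mean at 10 months was seen in 19 and a lower one in 5, and the gene lower in all 3 was Rassf2, described below. Cdkn1a, which encodes the p21 inhibitor of cyclin-dependent kinases, stood at 69.4, 20.2 and 92.1 FPKM at 10 months and 6.25, 8.01 and 9.39 at 2 months (log2 fold change 2.56 ± 0.53 SE, adjusted p = 0.337). Gadd45a, a stress sensor that slows the cycle, stood at 42.9, 17.5 and 41.4 against 6.19, 7.51 and 9.84 (log2 fold change 1.90 ± 0.36 SE, adjusted p = 0.284). Gadd45b stood at 27.1, 55.5 and 29.2 against 12.1, 17 and 21. Outside the list, Phlda3, a p53 target, stood at 11.8, 8.64 and 7.44 against 3.91, 4.92 and 2.14. In Cdkn1a and Gadd45a replicate 2 was the nearest to the younger libraries, whereas in Gadd45b it was the highest. Mdm2, which p53 induces and which degrades it, is also outside the list and stood at 29.6, 25.4 and 31.3 against 18.8, 18.9 and 22.4. Ccng1, a p53 target in the list, stood at 17.5, 16.3 and 18.7 against 13.7, 19.2 and 13.7, with overlap.

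Targets of ATF4, the factor that answers amino acid shortage and stress of the endoplasmic reticulum, are given with each replicate because 10-month replicate 1 was the highest in every one named here. Of 28 genes of amino acid transport and ATF4, 9 were higher (all genes: 8.66%) and 1 was lower in all 3 (all genes: 8.99%). The 9 higher genes also lay above the other 7 libraries (all genes: 2.0%), and the median of the 28 was 0.55. Nupr1, a stress-induced chromatin protein, stood at 453, 190 and 131 FPKM against 64.1, 69.7 and 91 (log2 fold change 1.58 ± 0.44 SE, adjusted p = 0.362). Chac1, which degrades glutathione, stood at 66.4, 5.99 and 7.69 against 0, 0.152 and 3.5, Asns, the asparagine synthetase, at 67.9, 14.5 and 27.7 against 12, 13.7 and 12.2, and Trib3 at 29.8, 1.28 and 2.1 against 1.6, 0.336 and 0.776. In Trib3, replicates 2 and 3 were at or near the 2-month level and the groups overlapped, and in Asns replicate 2 was just above it. Atf4 itself stood at 428, 300.2 and 282 against 141, 209 and 223, and Cebpb, its partner, at 117, 83.1 and 67.6 against 56.6, 42.2 and 44.

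Of 29 lysosome and autophagy genes, 12 were higher (all genes: 8.66%) and 1 was lower in all 3 (all genes: 8.99%), with a median of 0.30. Sqstm1, the p62 receptor that brings cargo into autophagosomes, stood at 391, 250.1 and 286 FPKM against 149.7, 166 and 161, with 179 and 207 in mural cells (log2 fold change 0.93 ± 0.19 SE, adjusted p = 0.337). Gabarapl1, a protein of the autophagosome membrane, stood at 129.9, 77.4 and 126 against 37, 51.3 and 62.9, and its relative Map1lc3b at 82.7, 76.1 and 79.1 against 59.7, 61.7 and 61.7. These 3 genes lay above the other 7 libraries, whereas the lysosomal protease Ctsl stood at 1136, 1342 and 1018 against 1184, 1338 and 963, with overlap.

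Outside the lists, 130 of the 205 named genes with at least 5 FPKM that lay above the other 7 libraries were in none of them. Both cytoplasmic actins were among these: Actg1 stood at 1372, 1252 and 1516 FPKM at 10 months and 646, 852 and 941 at 2 months, and Actb at 1025, 859.7 and 828 against 675, 696 and 727. The kinase gene Pim1 stood at 56.1, 30.9 and 37.9 against 8.92, 13.2 and 16.3, Frat2, a regulator of WNT signalling, at 23.4, 21.7 and 25.7 against 3.64, 7.05 and 13.3, and Chic2 at 57.2, 42.1 and 49.6 against 29.5, 23.9 and 24.7. From the lists of intermediate filaments and of Hippo signals, Lmna, which encodes the nuclear lamins A and C, stood at 208, 85.9 and 101.2 against 26.9, 24.9 and 55.3, and Ctgf, a target of the Hippo pathway, at 271, 98.3 and 158 against 18.9, 33.3 and 34.4 (log2 fold change 2.49 ± 0.40 SE, adjusted p = 0.252). A further set, partly in lists and partly bracketed by mural cells, was high in replicates 1 and 3 and lower in replicate 2. Tnfrsf12a, a receptor of tissue repair, stood at 219, 43.4 and 232 against 8.41, 7.62 and 25.4, and Anxa2, a membrane-binding annexin, at 253, 84.7 and 336 against 41.7, 39.8 and 44.7. Its partner S100a10 stood at 175, 66.9 and 295 against 29.6, 39.9 and 37.9, and F3, which starts coagulation, at 47.2, 10.2 and 229 against 1.89, 3.47 and 6.57. Srxn1, which repairs oxidised peroxiredoxins, was the most uneven, at 39.7, 2.22 and 76.9 against 1.74, 1.04 and 1.74.

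**Figure D3:**
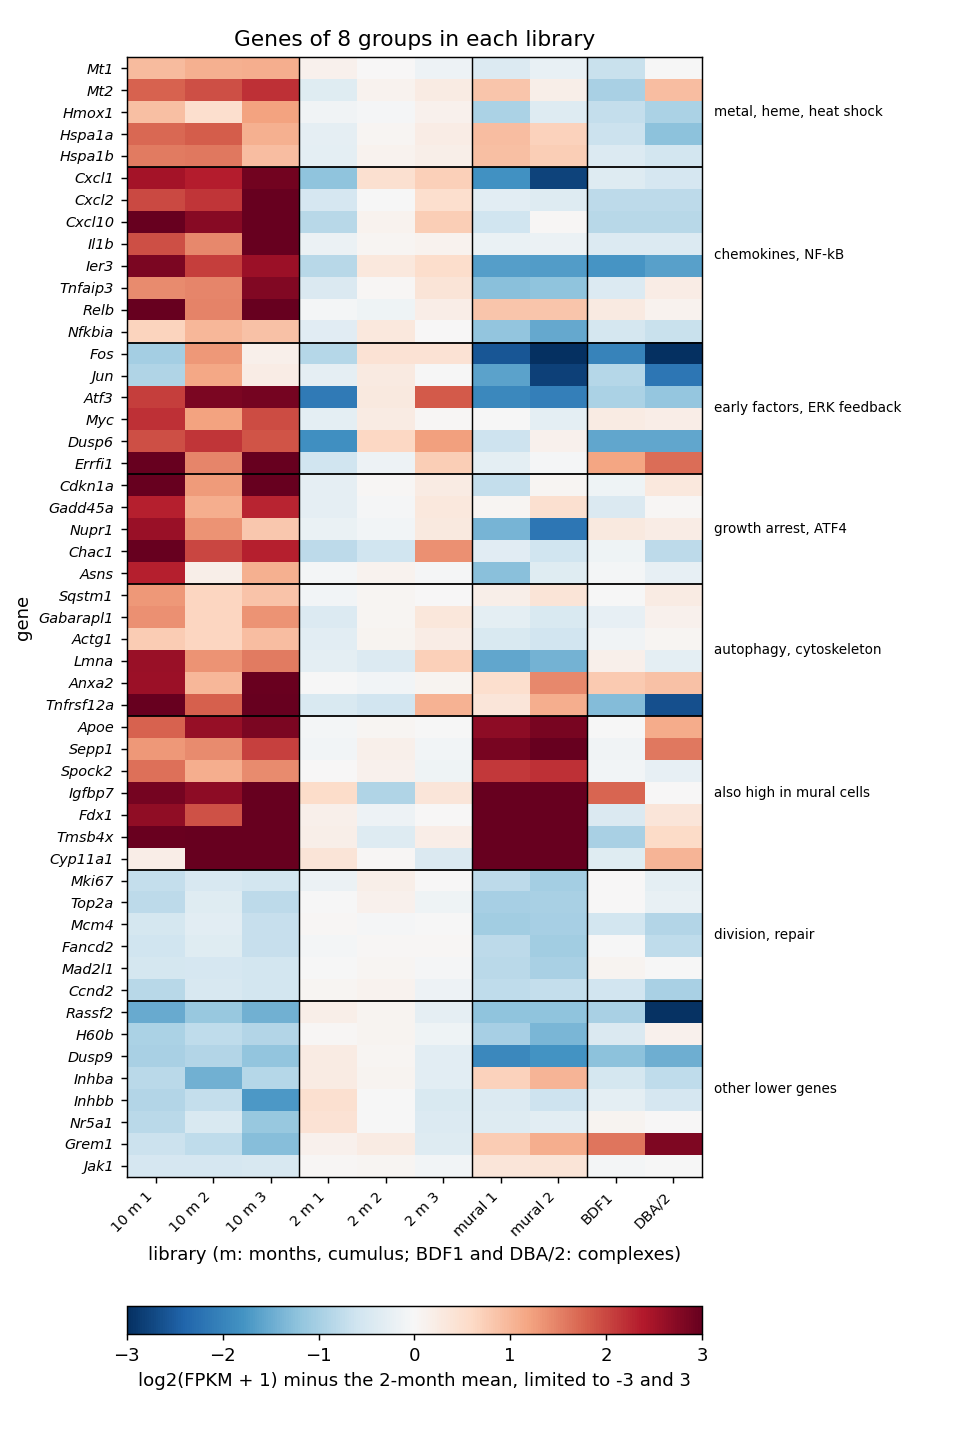
Log2(FPKM + 1) minus the mean of the 3 cumulus libraries at 2 months (colour, limited to -3 and 3) for genes of 8 groups (rows) in the 10 libraries (columns). Chemokine, NF-kB and growth arrest genes are higher in the 10-month libraries than in mural cells, whereas Apoe, Sepp1, Fdx1 and Tmsb4x are high in both.

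Many of the largest differences were in genes that mural cells also carry at a high level. Apoe, which carries lipids in lipoproteins, stood at 28.8, 51.9 and 60 FPKM at 10 months and 7.35, 8.11 and 7.61 at 2 months, and at 55 and 61.4 in mural cells. Sepp1, a selenium carrier, stood at 13.2, 14.3 and 22.8 against 4.43, 5.44 and 4.45 and 40.5 and 45.2 in mural cells, and Spock2, a matrix proteoglycan, at 29.1, 19.5 and 24.8 against 8.63, 9.41 and 7.82 and 41 and 42.8. Igfbp7, which binds insulin-like growth factors, stood at 12.6, 11 and 31.8 against 1.72, 0 and 1.39 and 44.8 and 123. Fdx1, the electron donor of mitochondrial steroid synthesis, stood at 226, 134 and 672 against 38.4, 31.2 and 34.7 and 322 and 596. Tmsb4x, an actin-binding peptide, stood at 40.9, 49.5 and 271 against 5.08, 3.11 and 5.13 and 94.2 and 192 (log2 fold change 3.96 ± 0.69 SE, adjusted p = 0.284), and was chosen after its values were seen. In Igfbp7, Fdx1 and Tmsb4x replicate 3 was well above the other older libraries, as it was in mural markers, whereas in Spock2 replicate 1 was the highest.

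Mural-restricted genes give the reference for this pattern. Cyp11a1, which starts steroid synthesis, stood at 15.7, 255 and 773 FPKM at 10 months and 18, 13.9 and 9.74 at 2 months, against 1067 and 2459.9 in mural cells, with 10-month replicate 1 within the 2-month range. Lhcgr, the luteinizing hormone receptor, stood at 1.93, 12.5 and 62.7 against 2.02, 1.41 and 1.63, and Star, which brings cholesterol into mitochondria, at 2.56, 12.6 and 81.3 against 2.02, 1.47 and 1.88. In replicate 1, Lhcgr, Cyp11a1, Sfrp4, Cyp19a1 and Nppc were within their 2-month range, whereas Star, Cd34, Comp, Prss35 and Hsd3b1 were above every 2-month library, with Cd34 at 2.01 FPKM against at most 0.564 and Hsd3b1 at 272 against at most 235. Nppc ran against the pattern, at 27.9, 31 and 16.1 FPKM against 34.1, 33.6 and 21.3, with 150 and 147 in mural cells. In replicate 3, the highest in summed mural markers, it was below every 2-month library. The part of mural RNA in Apoe, Sepp1, Spock2, Igfbp7, Fdx1 and Tmsb4x was not tested. With the mean of the mural markers as a covariate the log2 fold change was 1.68 for Apoe, 1.11 for Sepp1, 1.58 for Spock2 and 2.01 for Fdx1, and without replicate 3 it was 2.19, 1.36, 1.37 and 2.29. For Cyp11a1 it went from 3.37 to -0.49 with the covariate, and for Star from 2.51 to -0.52. Cyp11a1 and Star are themselves among the markers averaged in the covariate. Their drop thus follows from how it was built and does not show how well it accounts for mural RNA. The covariate also ran with age, as summed mural markers were higher in every 10-month library than in any 2-month one. These values thus cannot separate mural RNA from age. With the covariate, the smallest adjusted p over all genes was 0.647 (limma with Benjamini-Hochberg adjustment). Of 20 steroid synthesis genes, 6 were higher (all genes: 8.66%) and 0 lower in all 3 (median 0.50), and 0 of 20 lay above the other 7 libraries (all genes: 2.0%).

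Matrix and secreted plasma protein genes shared this bracketing. Of 26 collagen and fibrous matrix genes listed, 20 were tested. Of these 20, 10 were higher in all 3 (all genes: 8.66%) and 0 lower (median 0.61), and 0 lay above the other 7 libraries (all genes: 2.0%). Some of them, such as Col3a1, passed the filter only through their 10-month values. Col3a1, a collagen of stroma, stood at 2.41, 1.97 and 6.19 FPKM against 0.147, 0.0386 and 0.0891 and 7.09 and 26.3 in mural cells, and Col4a1, of basement membranes, at 4.67, 3.52 and 19.9 against 1.54, 0.614 and 1.07 and 21.6 and 56.1. Dcn, a stromal proteoglycan, stood at 2.42, 2.75 and 4.98 against 0, 0.13 and 0.1, and Acta2, the smooth muscle actin, at 8.05, 7.55 and 15 against 2.88, 3.29 and 3.18. Of 28 complement and coagulation genes listed, 16 were tested. Of the 16, 10 were higher in all 3 (all genes: 8.66%), 1 of them above the other 7 (all genes: 2.0%), with a median of 0.88. Pros1, a cofactor that restrains coagulation, stood at 29.7, 24.2 and 33.8 against 14.4, 17 and 15.2. Stromal markers were higher in the same libraries (36.8 to 75.4 FPKM in sum against 16.4 to 18.2), and their part was not tested. Of 29 selenoprotein and glutathione genes, 9 were higher in all 3 (all genes: 8.66%) and 0 lower. Gpx3, a secreted peroxidase, stood at 86.8, 114 and 96.9 against 59.9, 49.4 and 48.3.

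Of 19 antigen presentation genes tested, 7 were higher in all 3 (all genes: 8.66%), with a median of 0.48. Lower in all 3 were 2 of the 19, near the share of all genes (8.99%). Among class II genes, which professional antigen-presenting cells carry, H2-Ab1 was at 11.2, 11 and 10.8 FPKM at 10 months and 4.19, 3.98 and 1.29 at 2 months, with 2.2 and 4.78 in mural cells (log2 fold change 1.63 ± 0.33 SE, adjusted p = 0.308). H2-Aa stood at 3.15, 5.46 and 10 against 0, 0 and 0.737, and Cd74, the invariant chain, at 6.9, 10.8 and 30.9 against 1.78, 0.406 and 1.09. Lyz2, a lysozyme of macrophages, stood at 6.91, 14 and 24.2 against 0.116, 0.971 and 0.934, and C1qa, which macrophages secrete, at 2.84, 7.04 and 4.41 against 0.225, 0.708 and 0.181. H2-Ab1 was even among the older replicates, whereas Lyz2, Cd74 and H2-Aa were highest in replicate 3. The class I gene H2-K1, which most cells carry, stood at 158, 146 and 129.7 against 100.4, 82 and 74, above the other 7 libraries, and B2m, its light chain, at 156, 171 and 198 against 135, 118 and 114. The 2 lower genes were Nlrc5, a regulator of class I genes, at 2.82, 2.8 and 2.76 against 6.18, 4.24 and 4.04, and H2-T22, a class I relative, at 1.56, 6.63 and 3.77 against 9.89, 10.6 and 7.11. Immune markers were higher in the 10-month libraries, as given above, and their part was not tested. Of 26 interferon response genes, 7 were higher in all 3 (all genes: 8.66%) and 0 lower (median 0.74). Gbp2 stood at 6.14, 3.07 and 24.5 against 0.745, 0.828 and 0.778 and Irgm1 at 10.2, 10 and 28.8 against 4.46, 5.84 and 6.96.

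Of 28 genes of DNA replication and mitosis tested, 28 had a lower mean at 10 months (all genes: 6629 of 12267). Of the 28, 15 were lower in all 3 (all genes: 8.99%) and 0 higher, with a median log2 fold change of -0.52. Mki67, a marker of dividing cells, stood at 33.1, 38.9 and 37.3 FPKM at 10 months and 48.2, 61.4 and 55.3 at 2 months (log2 fold change -0.58 ± 0.14 SE, adjusted p = 0.341). Top2a, the topoisomerase of dividing cells, stood at 78.3, 105 and 77.8 against 134, 148 and 124, and Plk1, a mitotic kinase, at 35.4, 40 and 26 against 63.3, 52.4 and 51.8. Mcm4, a subunit of the replicative helicase, stood at 31.3, 36.6 and 28.2 against 47.2, 44.8 and 45.7. Mural cells were lower still, at 31.4 and 26.3 for Mki67 and 21.7 and 22.6 for Mcm4, so 0 of 28 lay below the other 7 libraries. With the mural markers as a covariate the log2 fold change was -0.68 for Mki67 and -0.44 for Mcm4, but that covariate cannot be separated from age, as given above. Outside the list, Ccnd2, the cyclin D that FSH induces in granulosa cells, stood at 67.6, 86.2 and 82.9 against 126, 130 and 109.5. Mad2l1, a spindle checkpoint gene also outside it, stood at 39, 39.6 and 38.2 against 55.5, 59 and 54.7, with little spread within either age.

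Of 31 DNA repair genes tested, 14 were lower in all 3 (all genes: 8.99%) and 0 higher (median -0.38), and 1 lay below the other 7 libraries. Fancd2, of the Fanconi anaemia pathway, stood at 7.53, 8.94 and 7.01 FPKM against 11.4, 12.1 and 12.1 (log2 fold change -0.55 ± 0.14 SE, adjusted p = 0.346). Brca2 stood at 4.85, 6.47 and 6.17 against 8.17, 9.73 and 9.22, whereas Brca1 stood at 11.4, 10.4 and 8.78 against 11.3, 11.6 and 13.9, with overlap. Recql, a helicase outside the list, stood at 8.55, 8.99 and 7.34 against 14.1, 14.2 and 13.6. Many of these genes are transcribed mainly in dividing cells, and the repair and division lists were not separated from each other here. Among the 6 libraries, 10-month replicate 3 had the highest mural marker sum (2003). The 2-month replicate 3 had the highest oocyte sum (1051) but the lowest mural sum (254). Without replicate 3 of both ages, 23 of 28 division and 20 of 31 repair genes were lower in both remaining older libraries than in either younger one (all genes: 24.1%). Higher by the same measure were 8 of 10 chemokine, 16 of 20 NF-kB and 14 of 23 growth arrest genes (all genes: 18.7%).

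**Figure D4:**
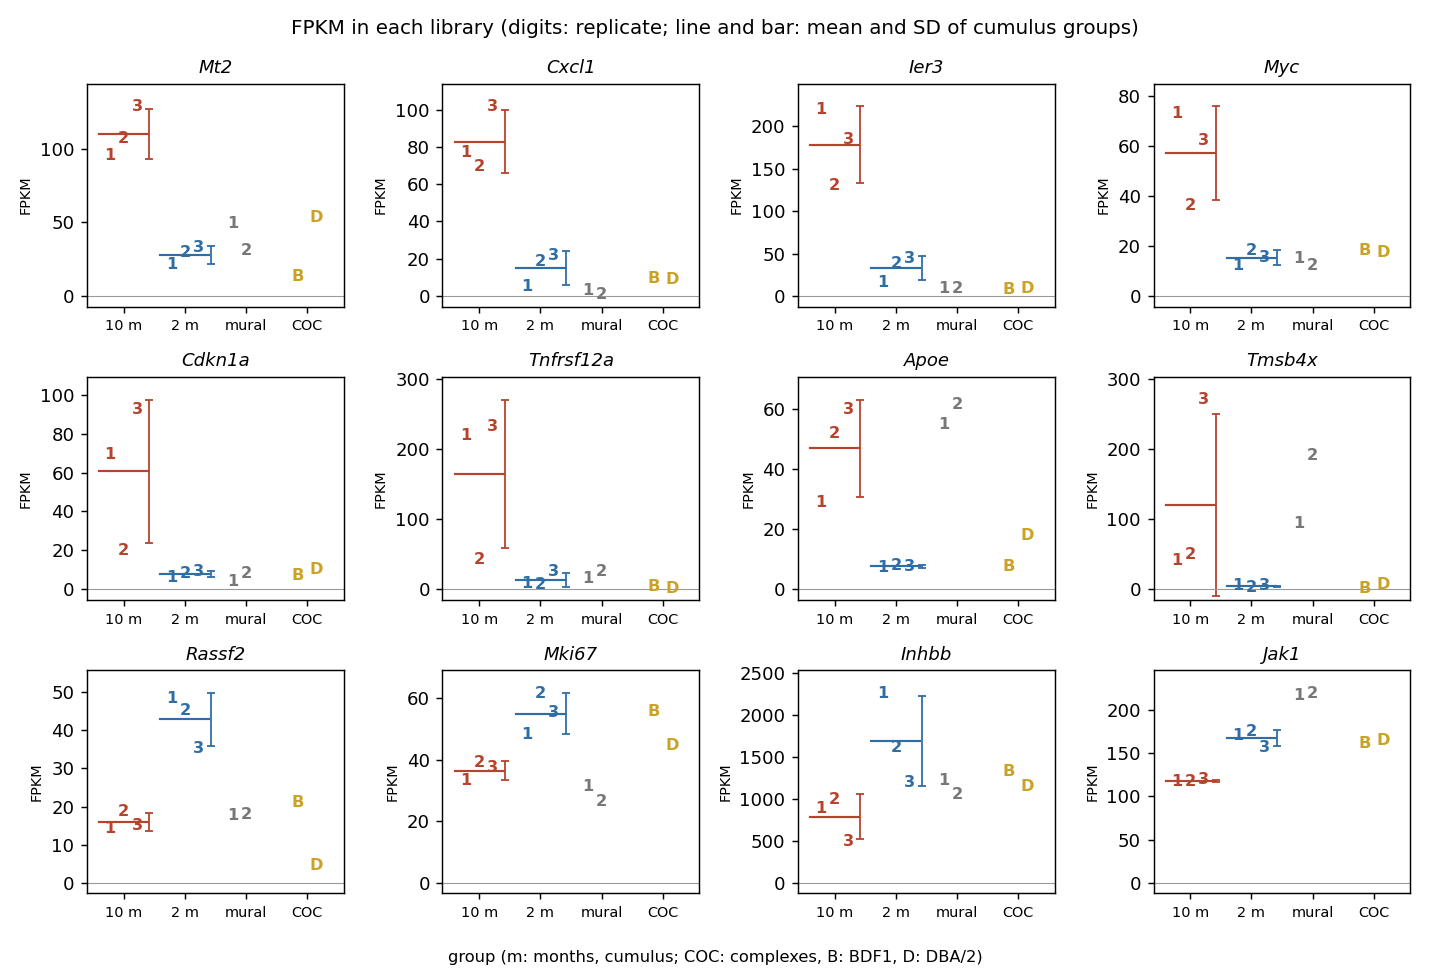
FPKM of 12 genes in each library (digits: replicate; B and D: BDF1 and DBA/2 complexes), with the mean (line) and SD (bar) of each cumulus group. Mt2, Cxcl1, Ier3, Myc and Cdkn1a are above all other libraries at 10 months, Apoe and Tmsb4x reach levels that mural cells also have, and Jak1 and Inhbb are below all other libraries.

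Among single genes with lower values, Rassf2, a tumour suppressor that binds RAS and a member of the growth arrest list, had the smallest p. It stood at 14.3, 18.7 and 14.9 FPKM at 10 months and 48.3, 45.2 and 35.1 at 2 months, with 17.7 and 17.9 in mural cells and 21.1 and 4.54 in the complexes (log2 fold change -1.37 ± 0.18 SE, adjusted p = 0.252). H60b, a ligand of an activating receptor of natural killer cells, stood at 7.13, 8.27 and 7.65 against 15.2, 15.8 and 13.4, and Dusp9, an ERK phosphatase, at 6.27, 6.77 and 5.32 against 16.1, 14 and 10.5. Dusp9, which is outside the list of ERK feedback genes, thus ran opposite to Dusp5 and Dusp6. Relt, a receptor of the tumour necrosis factor family, stood at 4.42, 10.1 and 4.65 against 36.9, 19.6 and 18.2, and Slc9a3, a sodium-proton exchanger, at 3.57, 2.86 and 3.06 against 6.13, 7.7 and 6.55. In Relt the older replicate 2 was more than 2 times the other older libraries. Crabp2, which carries retinoic acid to its receptor, stood at 61.9, 98 and 45.8 against 192, 146 and 135.

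Of the 29 gonadotropin, inhibin and TGF-beta family genes tested, 3 were lower and 5 higher in all 3 (median -0.08), where 8.99% of all genes were lower and 8.66% higher. The 3 lower ones, Inhba, Inhbb and Grem1, lay below the other 7 libraries, by 0.05, 0.08 and 0.26 log2 units. Inhba, a subunit of activin and inhibin, stood at 385, 246 and 371 FPKM at 10 months and 797, 711 and 540.3 at 2 months, with 1096 and 1375 in mural cells and 468 and 398 in the complexes (log2 fold change -1.04 ± 0.24 SE, adjusted p = 0.337). Inhbb, the other beta subunit, stood at 884, 999 and 492 against 2265, 1612 and 1196 (log2 fold change -1.11 ± 0.35 SE), whereas the alpha subunit Inha stood at 4163, 4010.1 and 2936 against 4911, 3811 and 2871, with overlap. Follistatin, the binding protein of activin encoded by Fst, stood at 592, 396 and 370 against 421, 442 and 415, also with overlap. Grem1, a BMP antagonist that oocyte factors induce in cumulus cells, stood at 37.9, 34.8 and 24.1 against 65.2, 71.3 and 45.7. Its level was 103 and 129 in mural cells. From other lists, Nr5a1, the nuclear receptor that drives steroid genes, was below the other 7 by 0.03 log2 units. It stood at 78.3, 101.1 and 62.6 against 186, 137 and 103, and Hey2, a target of Notch, at 20.5, 23.7 and 20.7 against 39.2, 40.3 and 26.5.

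Jak1, a kinase of cytokine receptors, had the widest gap below the other 7 libraries among named genes with at least 5 FPKM, at 0.39 log2 units. It stood at 117, 117 and 119.8 FPKM at 10 months and 170.5, 175 and 157 at 2 months, at 217 and 219.7 in mural cells and 161 and 165 in the complexes (log2 fold change -0.50 ± 0.12 SE, adjusted p = 0.340). The 3 older values lay within a few FPKM of each other. Nceh1, a cholesteryl ester hydrolase, stood at 10.6, 11.6 and 7.96 against 16.3, 19.3 and 15.5, and Sel1l, of the pathway that clears misfolded proteins from the endoplasmic reticulum, at 34.5, 34.8 and 35.7 against 51.6, 57.7 and 47. Epb4.1, of the membrane skeleton, stood at 12, 12.4 and 12.4 against 15.3, 16.6 and 16.8. Of 161 named genes with at least 5 FPKM in this class, 150 were in none of the lists.

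Other processes differed little between the ages. Of 36 ribosomal protein genes and 28 genes of ribosome biogenesis and translation, 0 were higher or lower in all 3 (medians 0.05 and 0.00). Of 39 nuclear genes of the respiratory chain, 34 had a lower mean (all genes: 6629 of 12267) but 1 was lower in all 3 (median -0.16). Of 24 glycolysis genes, 22 had a lower mean (all genes: 6629 of 12267). Of the 24, 4 were lower (all genes: 8.99%) and 2 higher in all 3 (all genes: 8.66%), with a median of -0.19. Ldha, lactate dehydrogenase, stood at 1263, 1162 and 644 FPKM against 1399.5, 1261 and 1078 and 304 and 322 in mural cells. Of 21 cholesterol synthesis genes, 1 was higher in all 3 and 0 lower (median 0.12). Amh, anti-Mullerian hormone, stood at 740, 638 and 392 against 426, 366 and 318, and Fshr, the FSH receptor, at 59, 74 and 40.3 against 79.3, 83.5 and 66.6, both with overlap. The gap junction gene Gja1 was lower in all 3 by a small amount, at 1276, 1221 and 1114 against 1425, 1528 and 1295.

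**Figure D5:**
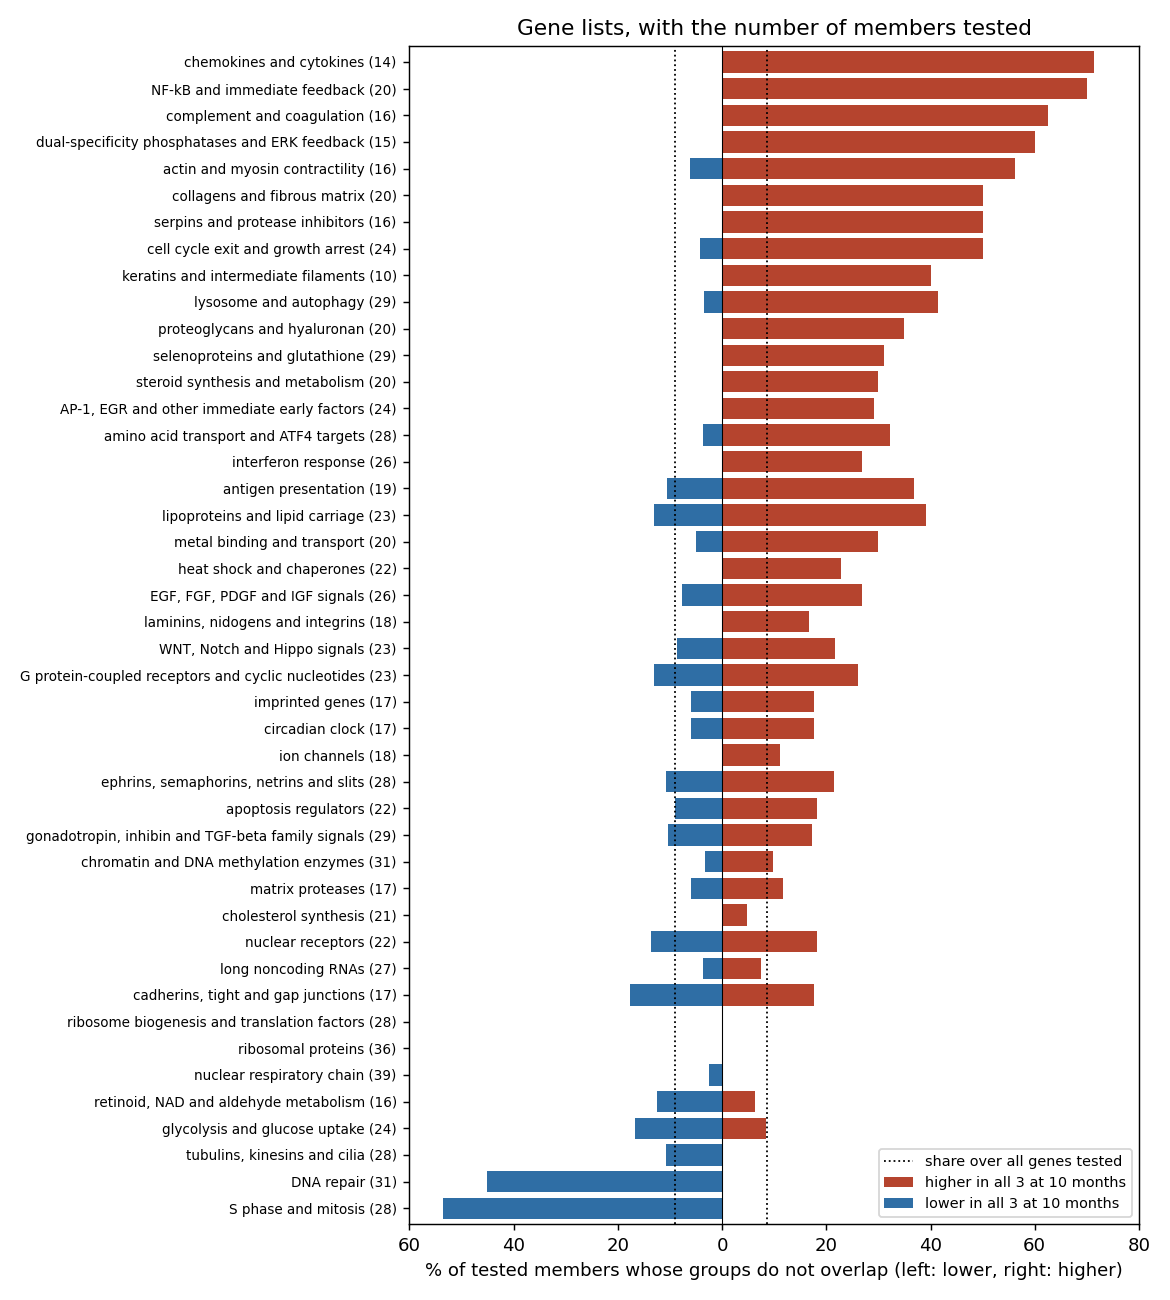
Share of tested members of 44 gene lists that were higher (right) or lower (left) in all 3 libraries at 10 months, with the number tested in brackets and dotted lines at the shares over all 12267 genes (8.66% and 8.99%). Chemokine and NF-kB lists lie at the top, replication and DNA repair lists at the bottom.

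Small RNA genes (miRNA, snoRNA and the like) were tested but are not described by name. Among 195, 5 were higher and 5 lower in all 3, and the median size of their log2 fold change was 2.46, against 0.19 in the 10903 genes that are neither small RNA nor predicted genes. They held 11.9 to 21.5% of the summed FPKM of the cumulus libraries, and the total that scales the FPKM of the other genes is not known to leave them out. Pisd-ps3, a pseudogene, was higher in all 3 (18.8, 20.9 and 24.2 FPKM against 2.98, 7.14 and 5.12) but stood at 38 and 0.194 in the mural replicates, and its value is uncertain because it shares sequence with its parent gene. Among named genes with known roles that mural cells and complexes also carry, Grb14, an inhibitor of the insulin receptor, stood at 138, 103 and 134 against 50.3, 60 and 54.7, with 133 and 225 in the complexes.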

How the data were processed

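RNA-seq values of 10 mouse libraries were read from the table the authors deposited, in FPKM. TopHat2 2.1.0, Cufflinks 2.1.0 and build mm9 are named, per the submitters' processing notes. No source used here gives the annotation, strand setting or read length. The extract protocol names total RNA. From the deposited FPKM, log2(FPKM + 1) was computed for genes with a mean of at least 1 FPKM over the 6 cumulus libraries, which understates fold changes of low genes. The ages were compared with limma 3.58.1 (R 4.3.3, intensity trend) over these 6 libraries only, adjusting p by Benjamini-Hochberg (threshold 0.05). An exact permutation test of 3 against 3 libraries cannot go below p = 0.10 and was not used. On simulated data of this size, limma called 31% of 100 genes changed by 1 log2 unit, 80% of 100 changed by 2, and 6 of 12067 unchanged genes. Relative depth was read from whole-number ratios (up to 6, within 0.01 log2) among low FPKM values.

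The 6 libraries were taken by their labels, but the comparison and the 44 gene lists were chosen with earlier results of these data known. The rule for named genes took, per direction, the 12 genes with the smallest p among those whose groups did not overlap, the 8 with the widest gap beyond the other 7 libraries (both with at least 5 FPKM in the higher group, without predicted and small RNA genes), and up to 3 members of each list with the smallest p. Promoters came from RefSeq (GRCm38.p6). Alternatives were the pseudocount, the low-value filter, scaling, library weights, covariates, the replicate block and leaving out libraries.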

Additional observations from a re-analysis of the deposited data

How the results depend on the processing

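With the replicate number as a block, 0 genes passed the adjusted threshold and 914 higher and 763 lower genes had an unadjusted p under 0.05, against 794 and 606 without it. Deviations of same-numbered libraries correlated at 0.00547, 0.12 and 0.15, so the numbers were not taken as pairs. No gene passed under any alternative that kept all 6 libraries (pseudocount, low-value filter, scaling, library weights, covariates or block). With 1 library left out, 4 to 85 genes passed, and 476 to 1126 higher and 278 to 904 lower genes had an unadjusted p under 0.05. Without 10-month replicate 2, 85 passed. Groups that did not overlap then numbered 1336 to 2103 (higher) and 1467 to 2351 (lower), and genes beyond the other 7 libraries 290 to 779 and 286 to 600; fewer libraries make both criteria easier to meet. Without replicate 3 of both ages, an alternative chosen after seeing the data, 13 genes passed, 2226 and 2874 did not overlap, and 638 and 700 lay beyond the rest. With the complexes left out, also chosen then, 385 lay above and 356 below the other cumulus and mural libraries. Library weights gave 1398 higher and 1323 lower genes at an unadjusted p under 0.05, and mural markers as a covariate 472 and 251. Without a low-value filter 1614 genes were higher in all 3, and with a mean of at least 5 FPKM 685, as more and fewer genes were tested. Rescaling to the same sum without small RNA genes turned the balance of an unadjusted p under 0.05 to 622 higher and 860 lower. For the other moves the cause was not tested. Of 2629 fold changes of named genes under alternatives, 2564 kept direction and call, 18 passed the threshold with 1 or 2 libraries left out, and 47 changed sign, in 15 genes. The log2 fold changes that changed sign follow. With library weights, Ccng1 was -0.0144, Ctsl -0.13, Egr1 -0.35, Fos -0.51, Hsp90aa1 -0.00854, Inha 0.0166, Jun -0.40, Mtf1 0.17 and Otof 0.0824. Rescaled without small RNA genes, Ctsl was -0.00884. With quantile normalization, Ctsl was -0.00335 and Inha 0.15. Without replicate 3 of both ages, Ctsl was -0.0278, Mt3 -0.0965, Mtf1 0.0999 and Otof 0.15. With the mural covariate, Cyp11a1 was -0.49, Egr1 -1.02, Fos -0.71, Hsp90aa1 -0.12, Inha 0.24, Jun -0.70, Ldha 0.27, Lhcgr -0.66, Otof 0.38 and Star -0.52. Of these, Cyp11a1, Lhcgr and Star are part of the covariate. Rescaled to the same sum, Inha was 0.0162. With 1 library left out at a time, it ranged from -0.12 to 0.12 for Ctsl, -0.30 to 0.70 for Egr1, -0.44 to 0.72 for Fos, -0.15 to 0.19 for Fst, -0.0886 to 0.15 for Hsp90aa1, -0.24 to 0.15 for Inha, -0.35 to 0.68 for Jun, -0.30 to 0.33 for Mt3, -0.31 to 0.24 for Mtf1 and -0.20 to 0.16 for Otof. Absolute depth was not used here, so no counting error could be set on an FPKM, and values under about 1 FPKM rest on few reads.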
